A study of Mus musculus with 33 samples.

Results

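The 8 genes Mrc1, Pf4, Lyve1, Cd163, Cbr2, F13a1, Ms4a7 and Clec10a, markers of the perivascular and meningeal macrophages of the brain's borders, were followed through 33 RNA-seq libraries of sorted mouse microglia in 10 groups. They were listed by name as known markers of these cells and are 8 of the 54146 genes counted. The list was chosen with earlier results of these data known, so counts of members called describe it and do not test it. Microglia live in the brain's parenchyma, whereas border macrophages line its vessels and membranes, and both come largely from yolk sac precursors and depend on the CSF1 receptor. Border macrophages carry receptors for sugars, scavenged proteins and hyaluronan that resting microglia make little of, and microglia in turn carry P2ry12, Tmem119 and Sall1. IRF8 is a transcription factor of the myeloid lineage that acts with PU.1, and its partner in dendritic cells is BATF3, a factor of the basic leucine zipper family. The question followed here is whether samples without Irf8 gained the border macrophage genes.

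All mice were C57BL/6 and all libraries were labelled female microglia, isolated without enzymes and sorted by FACS. Germline IRF8KO mice and WT mice were sampled at 3 months (4 libraries each) and 9 months (3 each). At 9 months, 5xFAD mice, in which a neuronal promoter drives human transgenes that model familial Alzheimer's disease, were sampled with Irf8 (3 libraries, labelled 5xFAD/WT) and without it (3 libraries, 5xFAD/IRF8KO). Batf3KO mice (genotype Batf3-/-) and WT mice of that experiment were sampled at 3 months (3 each). In the conditional experiment, IRF8flox mice without Cre (3 libraries, flox) and IRF8floxCx3cr1CreERT2 mice (4 libraries, Cre) were sampled at 3 months after both had received tamoxifen for 5 days from postnatal day 12. The series' design text gives a Rosa26LSL-EYFP reporter and a sort for YFP there. Mice without Cre cannot switch this reporter on, so the gate of the flox libraries is not known here. Cx3cr1, whose locus drives this Cre, is expressed by border macrophages as well as microglia. In a germline knockout every cell lacks the gene from the start, and which exons the IRF8KO allele lacks is not known here. The labels do not say that each replicate was a separate animal, so p-values measure only the spread between these libraries.

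Gene counts ran from 605376 to 18357762 per library, and levels are given as CPM, a gene's counts scaled to a common total of gene counts per library. Several libraries stood apart or went against their labels. Irf8 itself was at 262, 218, 230 and 218 CPM in WT libraries against 93.3, 83.1, 171 and 130 CPM in IRF8KO at 3 months, and 566 to 797 CPM in the WT and 5xFAD groups against 13.3 to 131 CPM in the knockouts at 9 months. Irf8 fell by 1.12 on the log2 scale at 3 months (adjusted p = 0.0415), fell by 3.04 at 9 months and fell by 2.79 with 5xFAD, but was 0.55, -0.60 and 0.26, none called, when libraries were scaled to 6 genes that microglia and border macrophages share (C1qa, C1qb, C1qc, Csf1r, Adgre1, Mertk). Reads outside the deleted part, if any, are counted, so Irf8 checks the germline labels only in part. Batf3 was at 0 to 1.78 CPM in all germline knockouts and at least 18.2 CPM in their controls. Flox libraries held 1157, 1172 and 1018 CPM of Irf8, and Cre libraries 423, 382 and 457 CPM in replicates 2 to 4 but 1217 CPM in replicate 1, so the library labelled Cre replicate 1 goes against its label. Tests of that experiment are therefore given with and without it. Y-linked transcripts (4 genes summed) reached 10 CPM in 16 of the 33 libraries. These included 3 of 4 WT and 4 of 4 IRF8KO at 3 months, 3 of 3 WT, 2 of 3 IRF8KO, 1 of 3 5xFAD and 3 of 3 5xFAD/IRF8KO at 9 months, but none of the Batf3KO and conditional experiments. The WT libraries at 3 months of the IRF8KO experiment and all germline Irf8 knockouts held far more RNA of other cells than the remaining groups, as given below by marker list. In such bulk samples, fewer cells of a type and less RNA per cell cannot be told apart.

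The genes lie on 7 chromosomes of GRCm38. Mrc1 (ENSMUSG00000026712.3) is at chr2:14229392-14332057, plus strand, Pf4 (ENSMUSG00000029373.7) at chr5:90772435-90773383, plus strand, and Cd163 (ENSMUSG00000008845.9) at chr6:124304656-124330527, plus strand. Lyve1 (ENSMUSG00000030787.4) is at chr7:110850607-110863239, minus strand, Cbr2 (ENSMUSG00000025150.10) at chr11:120729489-120732114, minus strand, and Clec10a (ENSMUSG00000000318.16) at chr11:70156197-70170834, plus strand. F13a1 (ENSMUSG00000039109.16) is at chr13:36867178-37050244, minus strand, and Ms4a7 (ENSMUSG00000024672.11) at chr19:11321039-11336146, minus strand. F13a1 overlaps 2 genes on the other strand (Gm49144 and Gm30489) and Mrc1 holds Mir511. Reads were counted without strand, so overlapping genes cannot be separated. Clec10a has a near-identical neighbour, Mgl2, and reads could be split between them.

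The sequence upstream of the start is shown for the 5 members that passed the test at 9 months without Irf8, since these rose together there. Each runs 5′ to 3′ on the gene's strand, from RefSeq's promoter windows (GRCm38.p6, 250 bases before the start), and Mrc1 is given only up to its GENCODE start. Capitals mark GAGGAAG, a core of the PU.1 motif, or its reverse complement.
Mrc1, chr2:14229164-14229391: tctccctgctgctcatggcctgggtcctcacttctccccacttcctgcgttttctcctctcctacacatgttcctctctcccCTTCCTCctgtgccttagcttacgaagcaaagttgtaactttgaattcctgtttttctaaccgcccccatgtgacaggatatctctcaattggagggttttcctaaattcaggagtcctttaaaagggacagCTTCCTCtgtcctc
Pf4, chr5:90772185-90772434: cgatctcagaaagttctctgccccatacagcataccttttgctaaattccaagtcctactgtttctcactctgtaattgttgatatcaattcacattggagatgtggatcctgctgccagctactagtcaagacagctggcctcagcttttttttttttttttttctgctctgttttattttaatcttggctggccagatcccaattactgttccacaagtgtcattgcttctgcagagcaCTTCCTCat
Cd163, chr6:124304401-124304650: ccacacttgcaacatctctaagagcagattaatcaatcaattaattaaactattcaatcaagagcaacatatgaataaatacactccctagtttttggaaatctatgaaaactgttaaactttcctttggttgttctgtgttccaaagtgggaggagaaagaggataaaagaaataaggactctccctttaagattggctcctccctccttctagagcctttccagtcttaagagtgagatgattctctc
F13a1, chr13:37050245-37050494: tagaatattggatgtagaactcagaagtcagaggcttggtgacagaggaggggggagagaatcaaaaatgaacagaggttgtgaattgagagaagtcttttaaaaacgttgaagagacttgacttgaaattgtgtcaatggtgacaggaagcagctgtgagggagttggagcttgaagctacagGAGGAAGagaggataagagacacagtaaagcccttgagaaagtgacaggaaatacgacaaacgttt
Ms4a7, chr19:11336147-11336396: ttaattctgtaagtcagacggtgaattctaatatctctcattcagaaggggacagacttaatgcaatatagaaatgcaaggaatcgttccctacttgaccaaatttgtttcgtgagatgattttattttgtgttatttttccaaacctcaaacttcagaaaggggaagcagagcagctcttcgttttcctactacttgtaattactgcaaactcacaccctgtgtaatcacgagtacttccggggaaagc
RefSeq windows were found for 6 of the 8 members, in 8 entries. GAGGAAG on either strand was in 4 of these entries (Mrc1 with 2 matches, Pf4, Cbr2 and the first entry of F13a1), and in 10.6% of 32851 windows of the same length. The other motifs were also searched on both strands. GGAA followed after NN by GAAA, a composite of ETS and IRF factors that shares GGAA with GAGGAAG and can overlap it, is in 2.30% of all windows, GAAA followed after NN by GAAA, of interferon response elements, in 2.98%, and TGCTGA, the core of MAF recognition elements, in 16.1%. None of these was in the member entries. A match describes the letters of these windows and marks no binding site.

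In the germline knockout at 3 months, Mrc1 and Pf4 rose and no member fell. Mrc1 encodes the mannose receptor CD206, an endocytic lectin. It stood at 5.20, 7.24, 19.2 and 5.68 CPM in the 4 WT libraries and at 237, 157, 253 and 246 CPM in the 4 IRF8KO libraries. The groups did not overlap, and the lowest knockout library was far above the highest WT library. The log2 change was 4.47 (SE 0.43, adjusted p = 0.000411). Pf4 encodes the chemokine CXCL4, which platelets also store. It went from 15.2, 48.2, 51.1 and 55.2 CPM in WT to 487, 832, 634 and 893 CPM in IRF8KO, again without overlap, a log2 change of 3.97 (SE 0.44, adjusted p = 0.000907). Of the 8 members, which here all passed the filter on low counts, 2 were called, and 4.15% of the 13121 genes tested were called higher (7.39% in either direction).

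The other endocytic receptors of the list moved less at 3 months. Cd163, a scavenger receptor that takes up haemoglobin bound to haptoglobin, was at 8.24, 3.08, 24.0 and 1.11 CPM in WT libraries against 15.9, 10.5, 25.2 and 51.4 CPM in IRF8KO. The groups overlapped, and the log2 change of 1.41 did not pass (SE 0.80, adjusted p = 0.317). Lyve1, a hyaluronan receptor that lymphatic endothelium also carries, stayed between 0 and 1.85 CPM in WT and between 0 and 3.49 CPM in IRF8KO. Clec10a, a lectin for galactose sugars also found on dendritic cells, was uneven, at 16.9, 0, 5.21 and 0.494 CPM in WT libraries against 6.32, 0, 0.918 and 3.02 CPM in IRF8KO. Neither Lyve1 (adjusted p = 0.721) nor Clec10a (adjusted p = 0.672) passed the test.

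Among the remaining members, Ms4a7, a membrane protein of the MS4A family found in macrophages, was higher in every IRF8KO library (58.1, 85.8, 98.9 and 80.6 CPM) than in every WT library (0, 41.6, 10.5 and 1.60 CPM) at 3 months. Its log2 change of 2.46 did not pass (SE 0.93, adjusted p = 0.125). Without WT replicate 2 it did (4.15, adjusted p = 0.0176). F13a1, the A subunit of coagulation factor XIII and a transglutaminase that monocytes also make, was at 7.81, 2.08, 58.4 and 1.60 CPM in WT libraries against 62.2, 96.4, 27.5 and 35.2 CPM in IRF8KO. WT replicate 3 lay among the knockout libraries, and the log2 change of 1.70 did not pass (SE 0.92, adjusted p = 0.292), whereas it did without that library (3.84, adjusted p = 0.0166). Cbr2, a carbonyl reductase, was at 0, 0, 26.3 and 7.28 CPM in WT libraries against 4.86, 19.6, 15.0 and 17.8 CPM in IRF8KO (log2 change 0.75, adjusted p = 0.770). In all, 3 members (Mrc1, Pf4, Ms4a7) had every IRF8KO library above every WT library, against 12.3% of all genes tested, and the median log2 change of the 8 was 1.55 against -0.02 over all genes.

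**Figure D1:**
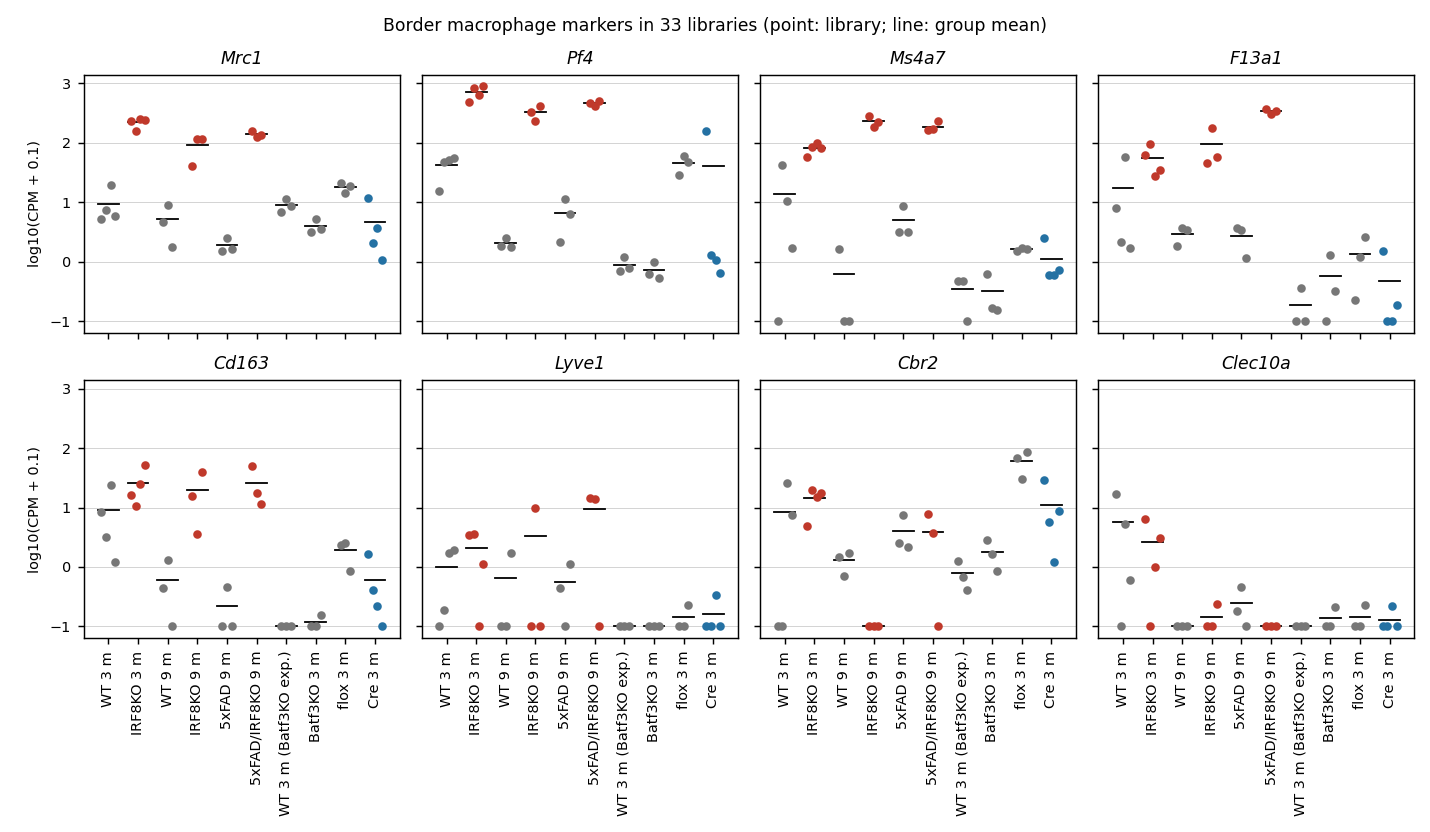
Level of each of the 8 markers in every library, as log10(CPM + 0.1), by group (exp. is experiment and m is months). Each point is a library, the line is the group mean, red marks germline Irf8 knockouts, blue the Cre group and grey the rest. Pf4 in the 3 germline knockout groups sits between 233 and 893 CPM, above every other library of the series.

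At 9 months, 5 members rose in IRF8KO and none fell by the test. Pf4 was at 1.74, 2.39 and 1.65 CPM in WT libraries against 323, 233 and 419 CPM in IRF8KO, which gave a log2 change of 7.71 (SE 0.59, adjusted p = 4.34e-06). Ms4a7 was at 1.56, 0 and 0 CPM in WT libraries against 286, 187 and 228 CPM in IRF8KO. Its log2 change was 8.23 (SE 0.72, adjusted p = 9.64e-06). For both genes every knockout library lay far above WT, with ratios of summed CPM of 172 (exact 95% counting interval 104 to 308) for Pf4 and 209 (110 to 457) for Ms4a7, which cover counting error only. Of the 7 members that passed the filter, 5 were called higher, beside 19.6% of the 14604 genes tested (28.3% in either direction). A marker near 0 in WT passes the filter through the knockout libraries alone, so this count describes the list and does not test it.

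Mrc1, F13a1 and Cd163 were the other 3 that rose at 9 months. Mrc1 went from 4.52, 8.96 and 1.65 CPM to 39.8, 115 and 117 CPM (log2 change 4.45, SE 0.57, adjusted p = 0.000148). F13a1 went from 1.74, 3.58 and 3.304 CPM to 44.8, 179 and 58.3 CPM (log2 change 5.67, SE 0.71, adjusted p = 0.000123). In both, every knockout library lay above every WT library. Cd163 went from 0.347, 1.19 and 0 CPM to 15.8, 3.43 and 40.2 CPM, also without overlap (log2 change 5.33, SE 1.38, adjusted p = 0.0131). Its call was lost without WT replicate 1 (4.85, adjusted p = 0.0855) or WT replicate 3 (4.94, adjusted p = 0.0576).

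Lyve1, Cbr2 and Clec10a did not rise with the others at 9 months. Lyve1 was seen in 1 of 3 IRF8KO libraries, at 9.67 CPM, and in 1 of 3 WT libraries, at 1.65 CPM (adjusted p = 0.321). Cbr2 had 0 counts in all 3 IRF8KO libraries and 1.39, 0.597 and 1.65 CPM in WT, at least 9.76-fold lower against a floor of 3 counts over the group, but the test did not pass (adjusted p = 0.0618). Clec10a was at 0 in all 3 WT libraries and at 0, 0 and 0.140 CPM in IRF8KO, and did not pass the filter. Over the 7 members that passed it, the median log2 change was 5.33 against 0.25 for all genes, and the same with groups at 0 set to 3 counts. This median has the same limit from the filter as the count of called members. Without overlap, 5 members were higher and 1 lower in the knockout, beside 23.2% and 29.4% of all genes.

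Mrc1, Pf4, F13a1, Ms4a7 and Cd163 rose without Irf8 in mice with the 5xFAD transgenes as well. Mrc1 was at 1.43, 2.39 and 1.56 CPM in 5xFAD libraries against 155, 127 and 134 CPM in 5xFAD/IRF8KO, a log2 change of 6.37 (SE 0.62, adjusted p = 1.96e-05). Pf4 was at 2.01, 11.02 and 6.22 CPM in 5xFAD libraries against 461, 420 and 514 CPM in 5xFAD/IRF8KO (6.34, SE 0.52, adjusted p = 6.10e-06). F13a1 reached its highest level of the series here, at 369, 306 and 348 CPM against 3.52, 3.31 and 1.04 CPM in 5xFAD (6.99, SE 0.70, adjusted p = 2.34e-05). Every 5xFAD/IRF8KO library lay far above every 5xFAD library in these genes. Of 7 members that passed the filter, 5 were called higher, beside 18% of all genes tested (27.8% in either direction).

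Ms4a7 and Cd163 completed these 5. Ms4a7 was at 3.10, 8.64 and 3.11 CPM in 5xFAD libraries against 162, 170 and 229 CPM in 5xFAD/IRF8KO (log2 change 5.33, SE 0.58, adjusted p = 4.05e-05). Cd163 was at 0, 0.367 and 0 CPM in 5xFAD libraries against 49.2, 17.7 and 11.4 CPM in 5xFAD/IRF8KO (7.65, SE 1.52, adjusted p = 0.00303). The 5xFAD libraries held so few reads of Cd163 that its ratio of 258 has a counting interval of 71.1 to 2130. Lyve1 was at 14.2, 14.0 and 0 CPM in 5xFAD/IRF8KO and at most 1.04 CPM in 5xFAD, and did not pass (adjusted p = 0.211). Cbr2 overlapped between the groups (7.65, 3.63 and 0 CPM against 2.43, 7.35 and 2.07 CPM; adjusted p = 0.983), and Clec10a was at 0 in all 3 double mutant libraries. The median log2 change over the 7 was 6.34 against 0.24 for all genes. Members near 0 in the controls, such as Cd163, passed the filter through the knockout libraries alone. This median and the 5 calls therefore describe the list and do not test it.

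**Figure D2:**
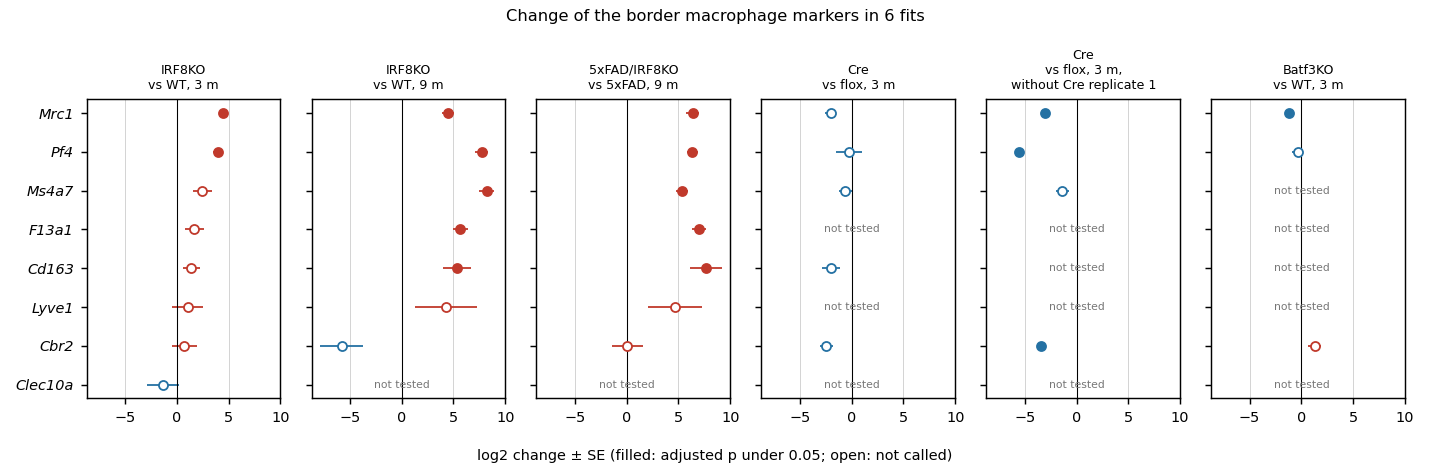
The log2 change of each marker with its SE in 6 fits, with the fit of the conditional experiment shown with and without Cre replicate 1. Filled points have an adjusted p under 0.05, red is higher and blue lower. Mrc1 and Pf4 are filled and positive in all 3 germline comparisons and filled and negative in the conditional fit without Cre replicate 1.

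The amyloid transgenes alone called none of the 7 members tested. In 5xFAD against WT at 9 months, edgeR called 0 of 7 members and 1.99% of all genes, although 3 members had an unadjusted p under 0.05 (Mrc1, Pf4, Ms4a7), DESeq2 called 2 and limma voom 3. Ms4a7 came nearest, from 1.56, 0 and 0 CPM in WT to 3.10, 8.64 and 3.11 CPM in 5xFAD, without overlap (log2 change 2.65, SE 0.68, adjusted p = 0.0762). Pf4 had a log2 change of 1.99 (SE 0.56, adjusted p = 0.104), which passed without 5xFAD replicate 1 (2.47, adjusted p = 0.0192). Mrc1 had one of -1.25 (adjusted p = 0.442). Depth limits this pair, since WT replicate 3 held only 605376 gene counts, where a single read is worth 1.65 CPM.

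In mice without Irf8, adding 5xFAD called none of 7 members either, beside 0.164% of all genes. By unadjusted p under 0.05 there were 2 (Cbr2, F13a1), by DESeq2 1 and by limma voom 0. F13a1 was at 44.8, 179 and 58.3 CPM in IRF8KO libraries against 369, 306 and 348 CPM in 5xFAD/IRF8KO, without overlap (log2 change 1.82, SE 0.54, adjusted p = 0.181), and passed without IRF8KO replicate 2 (2.90, adjusted p = 0.0175). Cbr2, at 0 in IRF8KO, was at least 30.6-fold higher in 5xFAD/IRF8KO against a floor of 3 counts over the group, but did not pass (adjusted p = 0.168). It did without 5xFAD/IRF8KO replicate 3, the library at 0 (adjusted p = 0.0438). Mrc1 (log2 change 0.67), Pf4 (0.61) and Ms4a7 (-0.25) did not pass.

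The interaction term asks whether the effect of losing Irf8 differed with the transgenes. It called 0 of 7 members and 0.438% of all genes (3 members with an unadjusted p under 0.05, 1 by DESeq2, 0 by limma voom). The largest difference was that of Ms4a7, at -2.90 log2 (SE 0.83, adjusted p = 0.137). Mrc1 differed by 1.92 (adjusted p = 0.249).

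The effect of IRF8KO was larger at 9 than at 3 months for Pf4 and Ms4a7. The difference between the log2 changes was 3.83 for Pf4 (SE 0.61, adjusted p = 0.000258) and 5.86 for Ms4a7 (SE 1.49, adjusted p = 0.00876), and 24% of all genes were called for such a difference. For Mrc1 the difference was 0.02 (SE 0.59) and was not called. F13a1 (3.94, adjusted p = 0.0540) and Cd163 (4.01, adjusted p = 0.0647) did not pass. The levels behind these differences were unlike for the 2 genes. Pf4 in IRF8KO was 711 ± 186 CPM (SD, n = 4) at 3 months and 325 ± 92.9 CPM (SD, n = 3) at 9 months, whereas in WT it was 42.4 ± 18.4 CPM (SD, n = 4) and 1.93 ± 0.404 CPM (SD, n = 3). The mean of Pf4 was thus lower at 9 months in both genotypes, and as a ratio by more in WT. For Ms4a7 the knockout level was higher at 9 months, 80.9 ± 17.0 CPM (SD, n = 4) at 3 and 234 ± 49.6 CPM (SD, n = 3) at 9 months. In WT Ms4a7 was lower at 9 months, 13.4 ± 19.3 CPM (SD, n = 4) at 3 and 0.521 ± 0.903 CPM (SD, n = 3) at 9 months. As a ratio this WT shift was the larger, with 2 WT libraries at 0 at 9 months. Age and experiment cannot be told apart in this comparison.

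The WT libraries of the IRF8KO experiment at 3 months already held several of these markers. Against the WT group of the Batf3KO experiment, 4 of 6 members that passed the filter were called higher, beside 26.5% of all genes (42.8% in either direction). A member near 0 in the Batf3KO experiment's WT passes the filter through the other WT group alone, so this count describes the list. Pf4 was 42.4 ± 18.4 CPM (SD, n = 4) against 0.795 ± 0.251 CPM (SD, n = 3), a log2 difference of 6.00 (adjusted p = 0.000176). Cd163 was at 0 in the Batf3KO experiment's WT, and at least 182-fold higher in the other (adjusted p = 0.00378). F13a1 (adjusted p = 0.00741) and Ms4a7 (5.90, adjusted p = 0.0222) were called too, and the call of Ms4a7 was lost without any one of the 3 replicates of the Batf3KO experiment's WT. Mrc1 did not differ by the test (9.32 ± 6.62 CPM, SD, n = 4, against 8.73 ± 2.26 CPM, SD, n = 3, adjusted p = 0.684). The IRF8KO changes at 3 months are thus measured from a WT group that was higher in 4 members.

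After deletion from postnatal day 12, Pf4, Mrc1 and Cbr2 were called lower in Cre than in flox once the library labelled Cre replicate 1 was left out, and no member was called with it. Pf4 was at 28.2, 61.0 and 46.5 CPM in flox against 1.22, 0.973 and 0.537 CPM in Cre replicates 2 to 4, but 158 CPM in the library labelled Cre replicate 1. Mrc1 was at 21.3, 14.2 and 18.4 CPM in flox against 1.93, 3.53 and 0.984 CPM in Cre replicates 2 to 4, with 11.9 CPM in replicate 1. Cbr2 was at 67.4, 30.3 and 87.0 CPM in flox against 5.57, 1.10 and 8.77 CPM in Cre replicates 2 to 4, with 28.6 CPM in replicate 1. The 3 Cre libraries with lowered Irf8 lay below all flox libraries in each of these genes, and replicate 1 lay near or above the flox libraries.

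With all 7 libraries, edgeR called 0 of the 5 members that passed the filter, and 0% of 15512 genes. By unadjusted p under 0.05 there were 3 members (Mrc1, Cd163, Cbr2) and 1407 genes in all, DESeq2 called 0 members and limma voom with quality weights 3. The log2 changes were -2.02 for Mrc1 (SE 0.54, adjusted p = 0.236), -2.46 for Cbr2 (SE 0.63, adjusted p = 0.215), -1.98 for Cd163 (adjusted p = 0.523) and -0.27 for Pf4 (SE 1.26, adjusted p = 0.989). Without Cre replicate 1, 3 of the 4 members that passed the filter were called lower, beside 2.5% of 15264 genes (6.24% in either direction). Pf4 fell by 5.58 in log2 units (SE 0.36, adjusted p = 1.82e-09), Cbr2 fell by 3.39 (SE 0.43, adjusted p = 1.92e-05) and Mrc1 fell by 3.03 (SE 0.34, adjusted p = 4.30e-06). Ms4a7, at 1.39, 1.62 and 1.51 CPM in flox against 0.507, 0.487 and 0.626 CPM in Cre replicates 2 to 4, had a change of -1.36 that did not pass (adjusted p = 0.275), and with replicate 1, at 2.45 CPM, one of -0.59 (adjusted p = 0.897). The median of the 4 was -3.21 against -0.01 over all genes. A member near 0 in Cre passes the filter through the flox libraries alone, so this median and the 3 calls describe the list.

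**Figure D3:**
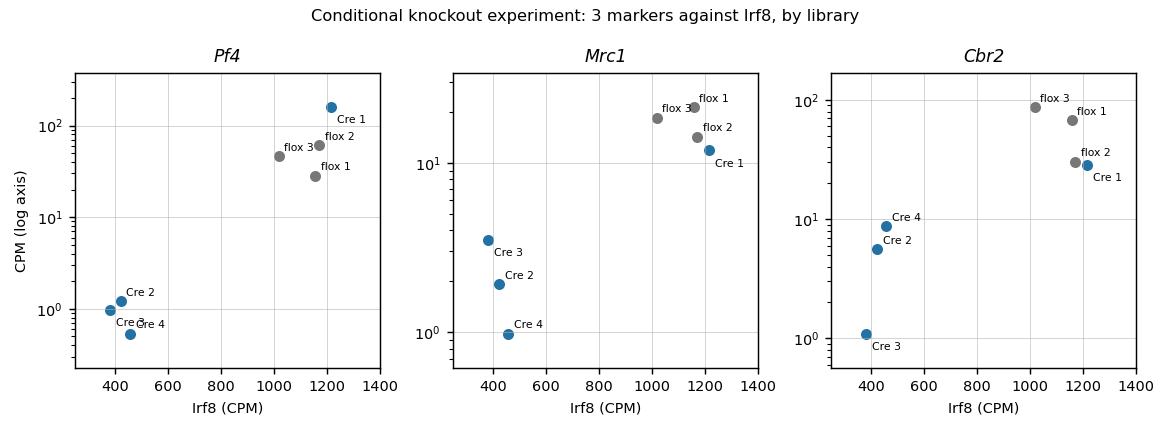
Pf4, Mrc1 and Cbr2 (CPM, log axis) against Irf8 (CPM) in the 3 flox libraries (grey) and 4 Cre libraries (blue), each point named by its library. Cre replicate 1 lies with the flox libraries at 1217 CPM of Irf8, and Cre replicates 2 to 4 lie low in both Irf8 and the marker.

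The members called in the germline knockout did not reach its levels in any library of the conditional experiment. F13a1 was at most 2.52 CPM and Ms4a7 at most 2.45 CPM in any of the 7 libraries, Cd163 at most 2.48 CPM, and Lyve1 and Clec10a were at 0 in 5 of 7. The difference between the Cre effect and the IRF8KO effect at 3 months was called for Mrc1 with all libraries (-6.35, SE 0.78, adjusted p = 0.000483), beside 7.04% of all genes, and without Cre replicate 1 (-7.36, adjusted p = 3.17e-06). For Pf4 it was -4.15 (adjusted p = 0.128), and without Cre replicate 1 it was -9.45 (adjusted p = 8.61e-07). The sort gate could differ between flox and Cre libraries as described above, and its part in these changes was not tested. The deletion also differs from the germline knockout in its timing and in the cells that lack Irf8, which cannot be told apart here. Batf3 itself, near 0 in the germline knockout, was at 33.04, 70.6 and 41.7 CPM in Cre replicates 2 to 4 and 1.42 CPM in replicate 1, against 2.02 to 4.56 CPM in flox. Its log2 change was 3.38 with all libraries (adjusted p = 0.198) and 3.78 without replicate 1 (adjusted p = 3.72e-08).

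Loss of Batf3 with Irf8 in place changed 1 member by the test. Irf8 was at 968 to 1080 CPM in WT libraries against 933 to 1005 CPM in Batf3KO, and Batf3 fell from 23.1, 26.8 and 24.0 CPM to 0.529, 0.441 and 0.490 CPM. Mrc1 was at 6.63, 11.1 and 8.42 CPM in WT libraries against 3.11, 5.04 and 3.43 CPM in Batf3KO, without overlap, and fell by 1.17 in log2 units (SE 0.27, adjusted p = 0.0302). This was 1 of the 3 members that passed the filter, beside 2.42% of all genes called lower (3.83% in either direction). The call was lost without WT replicate 2 (-0.96, adjusted p = 0.155), Batf3KO replicate 1 (-1.03, adjusted p = 0.129) or Batf3KO replicate 3 (-1.10, adjusted p = 0.0727). Pf4 (log2 change -0.37) and Cbr2 (1.27, adjusted p = 0.279) did not pass. The other 5 members were at most 1.20 CPM in any of the 6 libraries.

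A wider list of 24 further border macrophage genes, chosen with earlier results of these data known, split in the germline knockout. At 3 months 6 of the 17 that passed the filter rose and 1 fell (11 and 0 under the scaling to shared macrophage genes). At 9 months 8 of 18 rose and 4 fell (11 and 0), and with 5xFAD 7 of 18 rose and 4 fell (13 and 1). Of all genes tested, 4.15%, 19.6% and 18% were called higher in these comparisons. Under the scaling to shared macrophage genes, 5476 of 13121, 9134 of 14604 and 10063 of 14604 genes were. The median log2 changes of the list were 0.98, 2.43 and 1.81, against -0.02, 0.25 and 0.24 over all genes. Genes near 0 in the controls again pass the filter through the knockout libraries alone, so these values describe the list. Clec4n, the C-type lectin Dectin-2, rose in all 3 comparisons, by 3.98 (adjusted p = 0.00702), 8.98 (adjusted p = 2.14e-05) and 7.49 (adjusted p = 2.34e-05) on the log2 scale. Dab2, an endocytic adaptor, rose from 24.3 ± 20.3 to 266 ± 61.3 CPM (SD, n = 4) at 3 months (3.35, adjusted p = 0.00799), and by 4.56 with 5xFAD (adjusted p = 9.99e-06). Siglec1, the sialic acid receptor CD169, was at 0 in all WT libraries of the IRF8KO experiment at 3 months and 19.1 ± 11.4 CPM (SD, n = 4) in IRF8KO, at least 238-fold higher (adjusted p = 0.00256). Other control groups held it, at 4.04 CPM on average in WT of the Batf3KO experiment and 13.9 CPM in flox. Siglec1 was not called at 9 months (1.13 CPM on average in WT, 9.06 CPM in IRF8KO). It was not called with 5xFAD either (1.54 CPM in 5xFAD, 8.67 CPM in 5xFAD/IRF8KO).

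Other genes of the wider list went with these or against them at 9 months. Colec12, a scavenger receptor, rose by 6.58 (adjusted p = 0.00367) and with 5xFAD by 5.65 (adjusted p = 0.00471). Mgl2, the lectin neighbouring Clec10a, rose by 6.24 (adjusted p = 0.00132), from 0.315 to 22.9 CPM. Cd38, an enzyme that consumes NAD, was at 0 in WT and 36.2 ± 10.9 CPM (SD, n = 3) in IRF8KO, at least 97.6-fold higher, and rose by 5.11 with 5xFAD (adjusted p = 0.0107). At 3 months Cd38 rose by 2.07 (adjusted p = 0.04997), a call lost in 7 of 8 fits with a library left out.

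Selenop, Hpgd and Maf, which microglia are known to express as well, fell at 9 months per library total, and these falls turned positive under the scaling to shared macrophage genes. Selenop, a selenium carrier, fell by 1.97 at 9 months (adjusted p = 6.73e-05) and fell by 2.70 with 5xFAD (adjusted p = 9.40e-06), and was 0.75 and 0.38 under that scaling. Hpgd, which breaks down prostaglandins, fell by 2.05 at 9 months and fell by 1.99 with 5xFAD, and was 0.70 and 1.07 under it. Maf, a transcription factor, fell by 1.91 (adjusted p = 0.0449, lost in 4 of 6 fits with a library left out) and fell by 2.62 with 5xFAD, and was 0.70 and 0.39 under it. The same scaling moved the median of all genes from 0.25 to 2.95 at 9 months, from 0.24 to 3.27 with 5xFAD and from -0.02 to 1.61 at 3 months, so these genes stayed below the median of all genes. Selenop at 3 months fell by 1.25 (adjusted p = 0.0460, lost in 7 of 8 fits with a library left out), and was 0.48 under it. Mrc1, Pf4, Cd163, F13a1 and Ms4a7 were higher in all 3 germline comparisons under that scaling too. At 3 months 5 members were then called, beside 5476 of all 13121 genes tested called higher.

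Stab1, the scavenger receptor stabilin-1, went in opposite directions at the 2 ages. It rose by 1.79 at 3 months (69.7 ± 40.1 to 258 ± 88.0 CPM, SD, n = 4) and fell by 1.81 at 9 months (271 ± 27.4 to 60.8 ± 30.9 CPM, SD, n = 3), a difference of -3.52 (adjusted p = 0.000142), with the fall at 9 months turned to 0.88 under the scaling to shared macrophage genes. Other control groups held more Stab1 than that WT group at 3 months, on average 730 CPM in WT of the Batf3KO experiment, 465 CPM in flox and 126 CPM in 5xFAD. The rise at 3 months is thus measured from the lowest control level of the series. Folr2, Cd209b, Cd209d and Cd209f, known as border macrophage genes, had 0 counts in all libraries of IRF8KO at 9 months and of 5xFAD/IRF8KO. Their controls held few reads too. In that order the summed counts were 3, 1, 0 and 5 in WT and 6, 16, 0 and 23 in 5xFAD. Cd209f was called lower with 5xFAD, from 1.85 CPM on average in 5xFAD (adjusted p = 0.0162, lost without 5xFAD replicate 2 or 3), also under the scaling to shared macrophage genes (adjusted p = 0.0242). At 3 months Cd209f averaged 21.7 CPM in WT, with libraries from 0 to 67.2 CPM, and was at 0 in IRF8KO. It was not called there, and Cd209b reached 10.02 CPM in 1 IRF8KO library. Timd4 was at most 0.199 CPM on average in every group. Without Cre replicate 1, 5 genes of the wider list fell in Cre against flox (Stab1 by 0.86, Dab2 by 2.06, Fcna by 2.77, Siglec1 by 3.79, and Clec4n, at 0 in Cre) and 3 rose (Selenop 1.52, Lilra5 2.32, Ccr1 7.24), of 14 that passed the filter. With all 7 libraries edgeR called none of the 14. In Batf3KO only Ccr1, a chemokine receptor, was called of 12 (1.16, adjusted p = 0.0100), a call lost in 3 of 6 fits with a library left out.

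**Figure D4:**
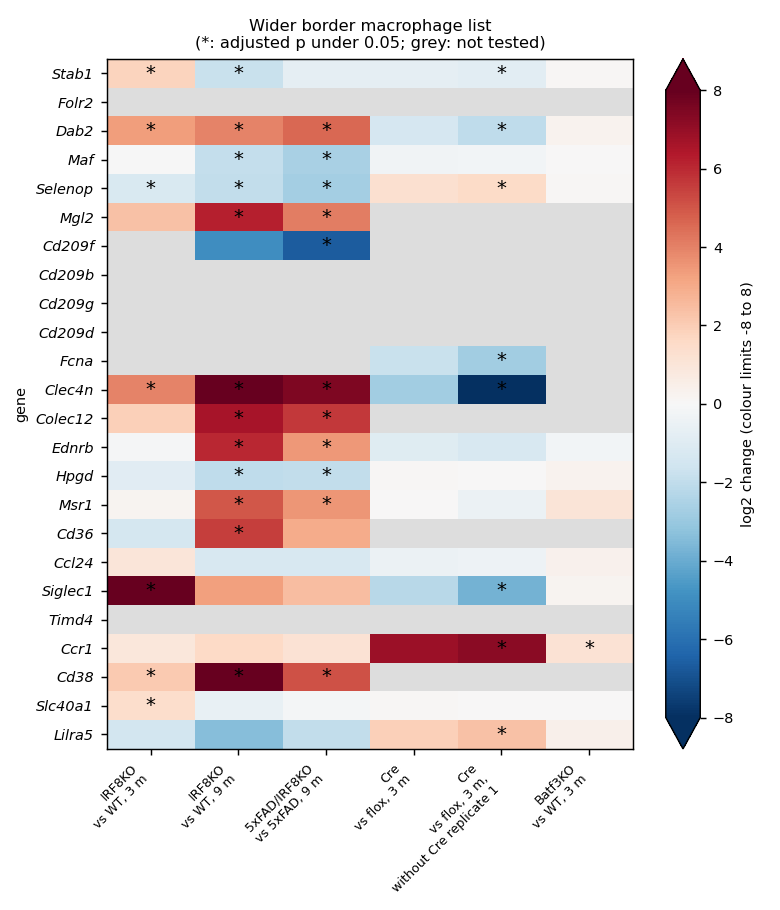
Log2 change of the 24 genes of the wider border macrophage list (rows) in 6 fits (columns), with colours limited to -8 to 8. Red is higher, blue lower, grey not tested, and a star marks an adjusted p under 0.05. The germline columns mix starred red cells, such as Clec4n, and starred blue cells, such as Selenop, whose change turns positive under the scaling to shared macrophage genes.

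Markers of other cells moved with the germline knockout. The 9 neutrophil genes summed to 0.174 to 3.304 CPM in WT libraries against 62654 to 86994 CPM in IRF8KO at 9 months, with 9 of 9 called higher there and with 5xFAD (0.168 to 2.07 against 78706 to 139907 CPM). At 3 months they summed to 45071, 41044, 8090 and 52241 CPM in WT libraries against 96264, 157073, 76708 and 72118 CPM in IRF8KO, with 4 of 9 called higher. The 6 monocyte genes summed to 7.47 to 11.9 CPM in WT, 389 to 883 CPM in IRF8KO, 11.9 to 16.4 CPM in 5xFAD libraries, and 885 to 1193 CPM in 5xFAD/IRF8KO at 9 months, with 2 of the 5 tested called higher in each comparison. Ly6c2, their leading gene, was at 0 in WT and 5xFAD and averaged 459 and 855 CPM in the knockouts. At 3 months they summed to 106 to 475 CPM in WT libraries against 437 to 1451 CPM in IRF8KO, with 0 of 5 called. F13a1 is known in monocytes as well, and the part of neutrophil and monocyte RNA in the members' rise was not tested.

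Other cell types share single members with border macrophages. The 8 platelet genes, beside Pf4, summed to 43.2 to 58.6 CPM in WT libraries against 8.65 to 34.1 CPM in IRF8KO at 9 months, and to 57.0 to 83.0 CPM in 5xFAD libraries against 0.867 to 3.52 CPM in 5xFAD/IRF8KO. Gp5, Gp6, Treml1 and Tubb1 were at 0 in both knockouts at 9 months, and Ppbp also in 5xFAD/IRF8KO, where Pf4 was at 420 to 514 CPM. At 3 months the platelet sum was 45.8 to 94.7 CPM in WT libraries against 18.8 to 31.2 CPM in IRF8KO. Gp9 led this list in 9 of the 10 groups and was at 319 CPM in flox. The 4 lymphatic genes, beside Lyve1, summed to 6.61 to 11.9 CPM in WT, 0.857 to 27.8 CPM in IRF8KO libraries, and 10.6 to 15.4 CPM in 5xFAD/IRF8KO at 9 months, with Flt4 and Ccl21a at 0 in all 3 germline knockout groups. The 6 dendritic genes, beside Clec10a, summed to 24.7 to 67.0 CPM in IRF8KO at 3 months against 5.43 to 26.5 CPM in WT. At 9 months they summed to 0.975 to 5.39 CPM in IRF8KO libraries against 6.57 to 43.0 CPM in 5xFAD/IRF8KO, where Xcr1 and Clec9a were at 0. The 5 genes of MHC class II, which border macrophages and dendritic cells present antigen with, summed to 109 to 259 CPM in WT libraries against 5.30 to 11.8 CPM in IRF8KO at 9 months, with 3 of 4 called lower (2 of 4 under the scaling to shared macrophage genes). With 5xFAD, 0 of 4 were called (266 to 296 CPM in 5xFAD libraries, and 139, 146 and 23.3 CPM in 5xFAD/IRF8KO), and 1 of 4 was called higher in 5xFAD/IRF8KO than in IRF8KO. The genotypes overlapped at 3 months (279 to 4619 CPM in WT, 219 to 1717 CPM in IRF8KO).

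RNA of tissue around the brain's surface and of brain cells moved too. The 5 fibroblast genes summed to 0 to 1.65 CPM in WT libraries against 22.1 to 52.1 CPM in IRF8KO at 9 months, led by Dcn, and to 0.382 to 19.96 CPM in 5xFAD/IRF8KO. The 6 erythroid genes summed to 0.174 to 52.9 CPM in WT libraries against 23871 to 158163 CPM in IRF8KO at 9 months, but overlapped at 3 months (30729 to 103267 and 9060 to 90415 CPM). Summed neuron genes went from 1.91 to 3.58 CPM in WT to 539 to 2696 CPM in IRF8KO at 9 months, oligodendrocyte genes from 134 to 167 to 7021 to 10889 CPM, and astrocyte genes from 206 to 216 to 1966 to 2721 CPM. Lymphocyte genes went from 0 to between 0.612 and 257 CPM, mast cell genes were at 0 in both, and endothelial genes summed to 137 to 243 CPM in WT, nearly all Pecam1, and 19.4 to 63.6 CPM in IRF8KO. Of the 4 endothelial genes tested, however, 3 were called higher and 0 lower at 9 months, and 2 were called higher and 0 lower with 5xFAD. The 13 homeostatic microglia genes fell at the same time, with 8 of 13 called lower at 3 months, 11 of 13 at 9 months and 13 of 13 with 5xFAD (2, 2 and 3 under the scaling to shared macrophage genes, where 1, 1 and 2 were called higher). Their sum was 56953 to 65080 CPM in WT libraries against 3550 to 7508 CPM in IRF8KO at 9 months, and the 6 shared macrophage genes summed to 32312 to 33854 and 2509 to 6106 CPM. The part of these other cells in the members' changes was not tested.

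**Figure D5:**
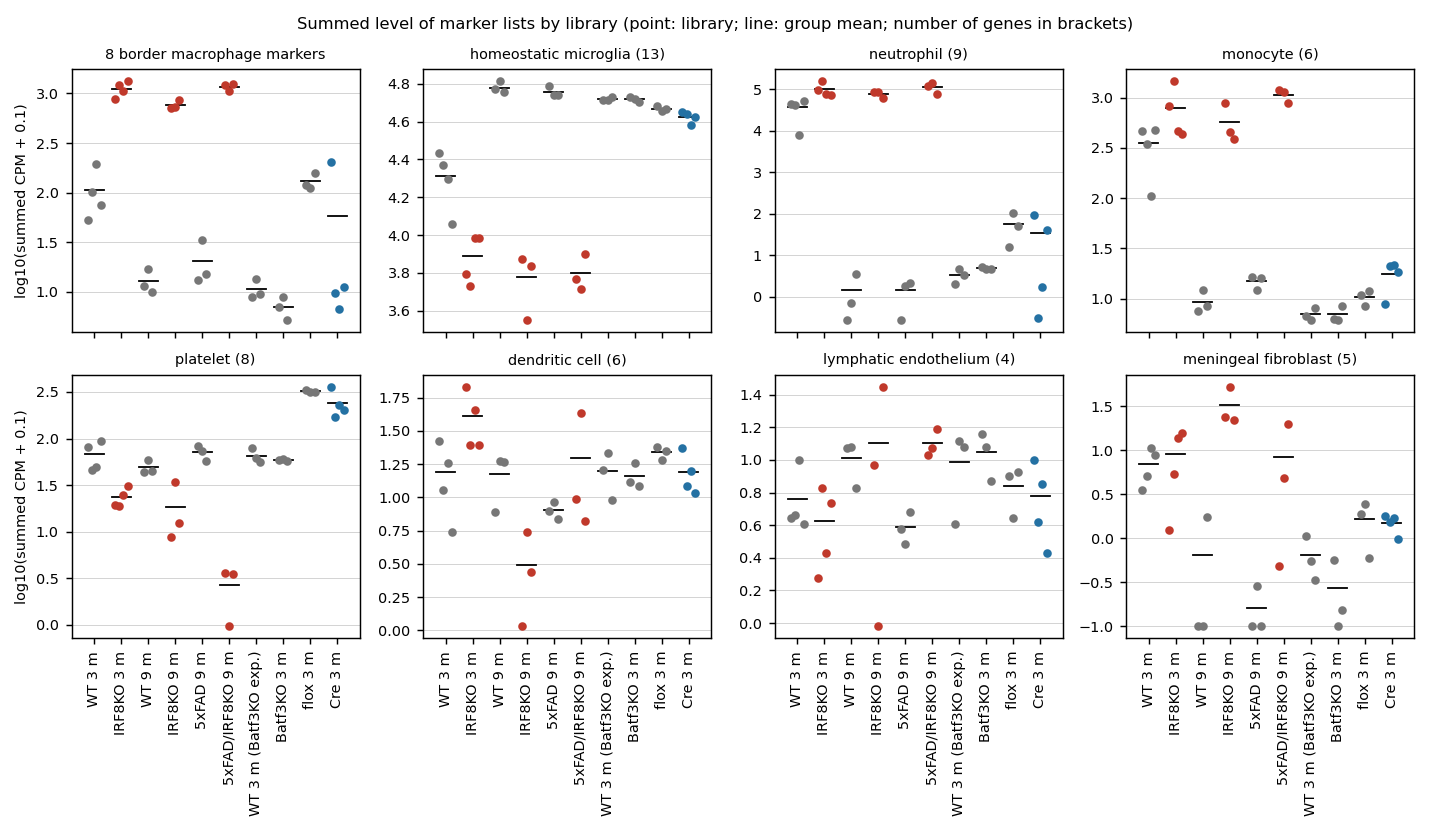
Summed CPM of 8 marker lists in every library, as log10(summed CPM + 0.1), coloured as in the plot of the 8 markers. Points are libraries and lines group means. The members' sum in the germline knockouts, between 710 and 1328 CPM, rises beside neutrophil and monocyte genes and against homeostatic microglia genes. The summed platelet genes, led by Gp9 in most groups, are lower in 5xFAD/IRF8KO (0.867 to 3.52 CPM) than in 5xFAD (57.0 to 83.0 CPM). The part of platelet RNA in the members' sum was not tested.

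In the other experiments neutrophil genes summed to 15.4 to 105 CPM in flox, 0.203 to 93.4 CPM in Cre and at most 5.16 CPM in the Batf3KO experiment. The platelet list was higher in the conditional experiment than in any library of the germline experiments, at 332, 315 and 316 CPM in flox, 170, 229 and 201 CPM in Cre replicates 2 to 4 and 355 CPM in Cre replicate 1. In flox nearly all of this sum was Gp9. The part of platelet RNA in the change of Pf4 there was not tested. Homeostatic genes summed to 45594 to 47940 CPM in flox against 38364 to 44985 CPM in Cre. The members' own sum was 121, 111 and 157 CPM in flox, 9.53, 6.57 and 11.004 CPM in Cre replicates 2 to 4, and 204 CPM in Cre replicate 1. In the Batf3KO experiment it was 8.76, 13.4 and 9.43 CPM in WT libraries against 6.94, 8.76 and 5.07 CPM in Batf3KO.

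Per kilobase of exon, Pf4 was far ahead in all 3 germline knockout groups, and the order of the other members differed between them. At 3 months Pf4 stood at 987 ± 258 CPM per kb (SD, n = 4), followed by Mrc1 at 35.03 ± 6.98, Ms4a7 at 18.2 ± 3.82 and Cbr2 at 10.8 ± 4.96. At 9 months Ms4a7 came second at 52.4 ± 11.1 CPM per kb (SD, n = 3), ahead of Mrc1 at 14.2 ± 6.88 and F13a1 at 14.0 ± 10.96, which lie within each other's spread. In 5xFAD/IRF8KO the second place was F13a1's, at 50.6 ± 4.78 CPM per kb (SD, n = 3), within the spread of Ms4a7 at 42.0 ± 8.19, with Mrc1 next at 21.7 ± 2.29. Cd163 lay between 3.63 and 4.78 CPM per kb and Lyve1 between 0.676 and 3.22 CPM per kb on average in these 3 groups. In flox, Cbr2 at 46.4 ± 21.7 CPM per kb was within the spread of Pf4 at 62.8 ± 22.7 (SD, n = 3), and Mrc1 followed at 2.82 ± 0.557. Pf4 led in 8 of the 10 groups. The exceptions were the WT and Batf3KO groups of the Batf3KO experiment, led by Mrc1 (1.37 CPM per kb) and Cbr2 (1.28 CPM per kb).

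Across the 33 libraries the members' levels rose and fell together to different degrees. These are descriptions over libraries that share experiments, depth and cell mixture. Spearman's rho was 0.891 for Pf4 with Cd163, 0.838 for Mrc1 with Cd163, 0.836 for Mrc1 with Pf4 and 0.819 for Pf4 with Ms4a7, but lay between -0.0452 and 0.223 for Cbr2 with every other member. Among 13971 genes with at least 5 CPM on average in some group, the 5 most like the members' mean were Ifitm2 (0.924), Anp32b (0.921), Mmp9 (0.919), Cep19 (0.912) and Fxyd5 (0.909). Mrc1 was most like Dab2 (0.875), Pf4 most like Ifitm2 (0.923) and Mpo (0.911), Cd163 most like Pla2g7 (0.898), F13a1 most like Dstn (0.897) and Ms4a7 most like Cdk1 (0.930). Lyve1 (E2f6, 0.707), Cbr2 (Ccl24, 0.712) and Clec10a (Clec4b1, 0.642) had lower values for the gene most like them. Mmp9 and Mpo are known as granule genes of neutrophils.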

How the data were processed

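The authors deposited a table of whole-number, unnormalized read counts for each library, in the layout that STAR writes. The submitters' processing notes name bcl2fastq, STAR 2.5.2b, Picard 2.17.11, Subread, featureCounts and mm10, with no role given, and the annotation is not given in the sources used here. Per the labels' protocols, cDNA was made with SMART-Seq v4 and Nextera XT, without molecular identifiers. The column ignoring strand was used (first strand 49.5% to 50.1%), and unassigned reads (21.4% to 52.7%) were left out. Of 54146 gene IDs, 52480 matched GENCODE M21 in the same version and 67 were not found. Groups came from titles. Genes passing edgeR's default filter entered edgeR 4.0.16's quasi-likelihood fit (R 4.3.3, TMM scaling), in 11 comparisons, the 9-month groups in one model, with Benjamini-Hochberg adjustment over all genes tested and a threshold of 0.05. Levels are CPM without TMM scaling. The method was tested on simulated data. Replicate numbers did not pair samples (correlations of deviations -0.153 to 0.169), and no 2 libraries of the same group were duplicates. Pairs across groups were not compared. Alternatives were other scalings, no filter, DESeq2 1.42.0, limma voom 3.58.1, a replicate block, other sets of libraries and leaving out each library. From the wider list, up to 4 called genes per direction with at least 5 CPM in the higher group were named, and other genes of it that are named were chosen after their values were seen. The members, lists and rules were chosen with earlier results of these data known.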

Additional observations from a re-analysis of the deposited data

Results flagged for a closer look

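Outlying libraries were looked for in 27 combinations of a member, or the members' sum, with a group of 4 libraries, and in 9 of them a library stood out by a gap above Dixon's 95% value. Chance alone gives about 1 in 20 for independent values without ties, whereas these combinations share libraries and include the members' sum. In the WT group of the IRF8KO experiment at 3 months, replicate 3 was high in Mrc1 (19.2 CPM) and F13a1 (58.4 CPM). In IRF8KO at 3 months, replicate 2 was low in Mrc1 (157 CPM), though still above all WT libraries. In the Cre group, the library labelled replicate 1 stood above the others in Pf4 (158 CPM), F13a1 (1.42 CPM), Ms4a7 (2.45 CPM) and the sum of the 8 members (204 CPM), and it is the library whose Irf8 level goes against its label. Cre replicate 3 was the single library of its group with reads of Lyve1 (0.243 CPM, 2 counts) and Clec10a (0.122 CPM, 1 count). Both flags follow from the other libraries being at 0.

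Effects differed between groups by a test of the difference in 3 cases. The IRF8KO effect was larger at 9 than at 3 months for Pf4 (difference 3.83 on the log2 scale) and Ms4a7 (5.86), where age and experiment cannot be told apart. The Cre effect on Mrc1 was lower than the IRF8KO effect at 3 months, by -6.35 on the log2 scale.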

How the results depend on the processing

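Each count of called members was recomputed under every alternative. Of 683 alternative values for 43 member results, 596 kept their direction and their side of the threshold, 70 newly passed, 12 no longer passed and 5 reversed. The 5 calls in each 9-month comparison without Irf8 stayed within 1.5 times that number under every setting run. Scaling to the 6 shared macrophage genes called 5 members at 3 months in place of 2, 0 in place of 1 for Batf3KO, 4 in place of 2 for the IRF8KO effect between ages and 6 in place of 1 for the Cre minus IRF8KO effect. Of all genes it called 5554 of 13121, 357 of 13128, 4007 of 15512 and 7370 of 17361 in these comparisons. Without the filter on low counts the numbers were 4 at 3 months, 2 for 5xFAD against WT, 1 for 5xFAD/IRF8KO against IRF8KO, 2 for Cre against flox, 1 for the interaction, 5 between ages and 2 for Cre minus IRF8KO. DESeq2 called 2 for 5xFAD against WT, 1 for 5xFAD/IRF8KO against IRF8KO, 1 for the interaction and 4 between ages, and also called Cbr2 lower in IRF8KO at 9 months (-5.24, adjusted p = 0.0471). Limma voom called 3 for 5xFAD against WT, 3 for Cre against flox and 4 for Cre minus IRF8KO. With all 33 libraries in one model the numbers were 1 for 5xFAD/IRF8KO against IRF8KO, 0 for Batf3KO, 2 for Cre minus IRF8KO and 7 for the comparison of the WT groups, and Pf4 lost its call between ages (3.86, adjusted p = 0.0653). With only the 2 groups compared, 5xFAD against WT called 1.

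Leaving out 1 library at a time gave 2 to 3 called members at 3 months, 0 to 1 for 5xFAD against WT, for 5xFAD/IRF8KO against IRF8KO and for Batf3KO, 0 to 3 for Cre against flox, 2 to 4 between ages and 1 to 3 for Cre minus IRF8KO. Between ages the 4 came without WT replicate 4 at 3 months. Pf4 in Cre against flox, at -0.27 with all 7 libraries, was 0.07 without flox replicate 2, and 0.13, 0.13 and 0.14 without Cre replicates 2, 3 and 4, and -5.58 without Cre replicate 1. With the replicate number as a block, which does not pair these samples, 3 members were called at 3 months (Ms4a7 added at 3.79, adjusted p = 0.0275) and 3 between the WT groups, where Ms4a7 no longer passed (5.62, adjusted p = 0.0607) and Cbr2 turned from 3.80 to -0.25. The causes of these shifts were not tested. Depth limits members near 0, above all in WT replicate 3 at 9 months, where 0 counts allow up to 4.96 CPM.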
